A study of Mus musculus with 20 samples.

Results

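The gene sets described here are named for Toll-like receptors, for lipopolysaccharide (LPS), for the transcription factor NF-κB or for tumour necrosis factor (TNF). They were chosen by name alone: any listed set whose name contains TOLL, TLR, LPS, NFKB, NF_KB or TNF and neither INTERFERON nor IFN. Of 3886 sets in all, 61 met this rule, with 15 to 464 genes each. Names ending in DN hold genes that are lower in the condition or contrast they are named for, and those 9 sets are given apart from the other 52. Of the 52, 23 are curated pathways and 29 are signatures from published experiments. They fall into 15 Toll-like receptor and LPS sets, 20 NF-κB sets and 20 TNF sets, with 3 sets counted in both of the last 2 groups.

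The values come from RNA sequencing of 20 libraries of mouse C57BL/6 material. The 14 myeloid libraries were made from bone marrow or spleen of adult animals after a CD3e depletion kit, which takes out T cells and leaves other lymphocytes. Bone marrow had 3 libraries from B16F10-bearing animals, 2 from YUMM3.3-bearing animals and 3 from healthy animals, and spleen had 2 libraries from each of these conditions. YUMM3.3 and B16F10 melanoma cells, grown for 4 days, gave 3 libraries each. B16F10 is a melanoma line of C57BL/6 origin, and YUMM3.3 comes from a genetically engineered mouse melanoma. The labels do not give the route, size or age of the tumours, and they do not tie libraries to animals.

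Toll-like receptors are sensors of microbial products and of molecules from damaged tissue. TLR4 recognises LPS, TLR9 recognises DNA in endosomes, and TLR2 works in pairs with TLR1 or TLR6 on lipoproteins. Most of them signal through the adaptor MYD88, and TLR4 also signals through TRIF (TICAM1). Both routes use TRAF6 and the kinase TAK1 to activate the IκB kinase (IKK) complex, which frees NF-κB to enter the nucleus and switch on inflammatory genes. TNF reaches the same complex from its receptors TNFR1 and TNFR2. A noncanonical route releases another NF-κB dimer after the proteasome has trimmed its precursor. In myeloid cells these pathways are known for driving cytokine production and for adjusting the output of marrow during infection and inflammation.

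The deposited values were 1 normalised enrichment score (NES) per set and comparison. An NES says how far the genes of a set gather at one end of the list of genes ranked between 2 groups, scaled for set size. Here a positive NES means higher in the first-named group. All NES, q values, ranks and leading edges given are those of the authors' deposited table, with the sign of NES set to this reading. A set was called at a false discovery rate (FDR) q below 0.05 in the authors' deposited table. No values per library were analysed here, so no spread between replicates can be given, and the q values say nothing of how far animals or cultures differ from each other. Library depth is unknown. Member genes were not analysed either, so which genes carried a score cannot be said, and sets that share genes do not count separately. The cells were measured in bulk, so fewer cells of a type and less RNA per cell cannot be told apart. Within a tissue the 3 comparisons share libraries. Each direction rests on the name of the report, and a joint reversal of the 3 comparisons of a tissue, or of the cell lines, would not be detected.

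In bone marrow of B16F10-bearing animals, 22 of the 52 sets were called higher than in healthy marrow, or 42.3%, against 20.1% of all 3883 sets. No set was called lower, against 5.00% of all sets. The other 30 were not called, and 7 sets had a negative NES. The median NES was 1.40 over the 52 sets and 0.96 over all sets. The excess was gone when 1 set was kept per source: 6 of 25 sources, or 24.0%, were then called higher, against 27.6% of all sources. In marrow of YUMM3.3-bearing animals, 4 sets were called higher and 4 lower than in healthy marrow, 7.69% each way, against 9.68% and 6.52% of all sets. The authors' direct comparison of the tumours in marrow called 7 sets higher with B16F10, or 13.5% against 8.09% of all sets, and 3 sets lower, or 5.77% against 8.40%.

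In spleen the counts were lower than the background or close to it. B16F10-bearing animals had 6 of 52 sets higher than healthy spleen, or 11.5% against 16.6% of all sets, and 0 lower, against 1.60%. YUMM3.3-bearing animals had 1 set higher and 1 lower, 1.92% each, against 15.6% and 5.31% of all sets. Between the tumours in spleen, 6 sets were higher with B16F10, or 11.5% against 9.63% of all sets, and 0 were lower, against 1.47%. In culture, YUMM3.3 cells had 7 sets higher than B16F10 cells, or 13.5% against 11.8% of all sets, and 0 lower, against 1.47%. A difference between the tissues was not tested. Across the 7 comparisons, 31 of the 52 sets were called at least once, or 59.6% against 55.6% of all listed sets. In 3 or more comparisons 11 were called, or 21.2% against 18.8%.

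**Figure D1:**
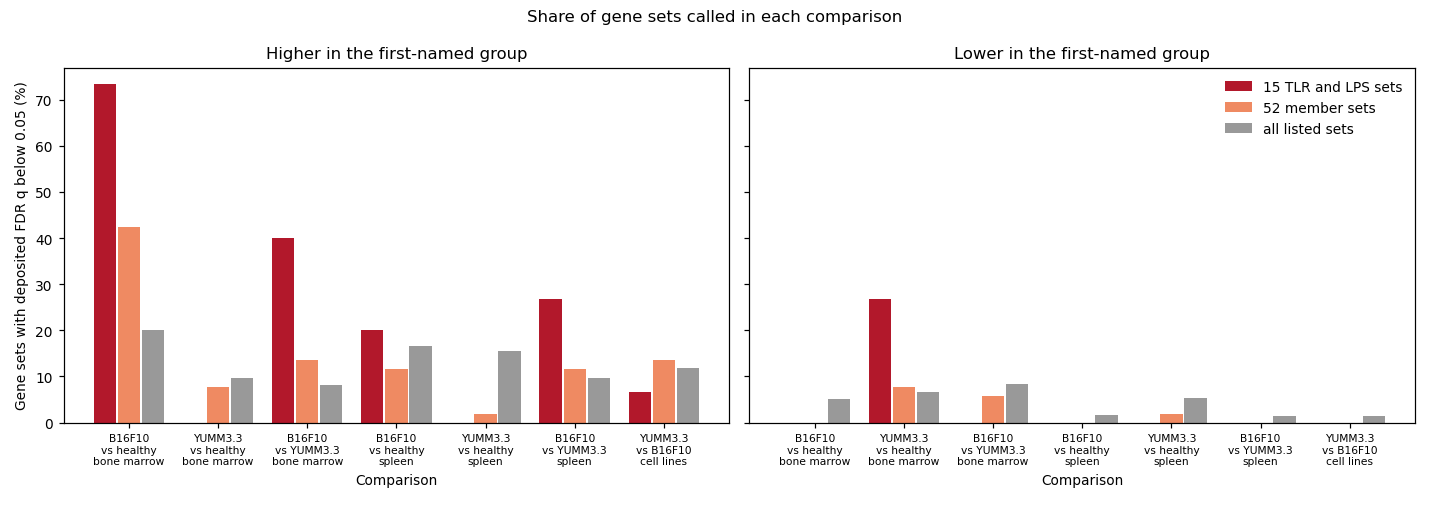
The bars give the percent of gene sets with a deposited FDR q below 0.05 in each of the 7 comparisons, higher in the first-named group at left and lower at right, for the 15 Toll-like receptor and LPS sets, the 52 member sets and all listed sets. The bar for the Toll-like receptor and LPS sets reaches 73.3% in B16F10-bearing against healthy marrow, against 20.1% of all sets, and is at 0 on the higher side in both YUMM3.3 comparisons with healthy tissue.

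The Toll-like receptor pathways rose in marrow of B16F10-bearing animals as a block. All 9 curated Toll-like receptor sets were called higher than in healthy marrow, with NES from 1.64 to 2.33 in the authors' deposited table. In marrow of YUMM3.3-bearing animals 0 of the same 9 were called higher and 3 were called lower than in healthy marrow, with a median NES of -1.51. In the direct comparison 5 of the 9 were called higher with B16F10 than with YUMM3.3, and 0 lower. Of the whole group of 15 Toll-like receptor and LPS sets, 11 were called higher with B16F10, 0 higher and 4 lower with YUMM3.3, and 6 higher in the direct comparison. These are shares of 73.3%, 0, 26.7% and 40.0%, against 20.1%, 9.68%, 6.52% and 8.09% of all sets. With 1 set per source 60.0% were higher with B16F10, 10.0% lower with YUMM3.3 and 20.0% higher in the direct comparison. These stood against 27.6%, 5.80% and 9.76% of all sources. The median NES with YUMM3.3 was then 0.74 in place of -1.18. At q below 0.01, 0 were lower with YUMM3.3 and 20.0% were higher in the direct comparison, against 2.21% and 3.12% of all sets.

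Among the receptor cascades, REACTOME_TOLL_LIKE_RECEPTOR_4_TLR4_CASCADE, the 114 genes downstream of the LPS receptor, had an NES of 1.96 with B16F10 against healthy marrow in the authors' deposited table (q = 0.00271). With YUMM3.3 it had -1.73 (q = 0.0352), and between the tumours 1.96 (q = 0.00651). It was therefore called in opposite directions with the 2 tumours. The direct comparison reuses the same tumour libraries, so its sign adds nothing for sets chosen by those calls. REACTOME_TRIF_TICAM1_MEDIATED_TLR4_SIGNALING, the adaptor route of TLR4 that also leads to interferon genes, had 2.00 with B16F10, -1.81 with YUMM3.3 and 2.07 between the tumours in the authors' deposited table, all called. REACTOME_TOLL_LIKE_RECEPTOR_9_TLR9_CASCADE, the endosomal DNA sensor, had 1.95, -1.80 and 2.06 in the same 3 comparisons of the authors' deposited table, also all called. These were the only 3 of the 52 sets called in opposite directions in marrow against healthy animals. Of all 3883 sets, 51 were.

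The other cascades showed the same signs with fewer calls. REACTOME_TOLL_LIKE_RECEPTOR_CASCADES, the parent set of 136 genes, had an NES of 1.99 with B16F10 in the authors' deposited table, -1.65 with YUMM3.3, which missed the threshold at q = 0.0532, and 1.88 between the tumours. REACTOME_TOLL_LIKE_RECEPTOR_TLR1:TLR2_CASCADE, for the lipoprotein receptors, had 1.96 with B16F10, -1.51 with YUMM3.3 (q = 0.102) and 1.72 between the tumours in the authors' deposited table. KEGG_TOLL_LIKE_RECEPTOR_SIGNALING_PATHWAY had 1.64 with B16F10 in the authors' deposited table (q = 0.0341), and its values with YUMM3.3 (-1.33) and between the tumours (1.55) were not called. BIOCARTA_TOLL_PATHWAY, a short version of 23 genes, had 1.77 with B16F10 (q = 0.0148), -1.18 with YUMM3.3 and 1.44 between the tumours in the authors' deposited table. In all, 7 of the 9 curated sets had a negative NES with YUMM3.3, though 4 of those 7 were not called.

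The 5 Reactome sets of this block (the parent set, TLR4, TRIF, TLR9 and TLR1:TLR2) are nested or overlap, and their scores came from the same stretch of the ranked list. In B16F10-bearing against healthy marrow all 5 reached their maximum at rank 2454, and the leading edge held 37% to 41% of their genes in the first 17% of the list, per the authors' deposited table. In YUMM3.3-bearing against healthy marrow all 5 had rank 2355, counted from the healthy end, with 35% to 40% of their genes in 16% of the list. In the direct comparison 4 of the 5 had rank 2463 and the TRIF set rank 2429. Their 5 calls are therefore not 5 separate observations.

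The sets for ligands made by the body itself were called with B16F10 and had a positive NES with YUMM3.3 in marrow. PID_TOLL_ENDOGENOUS_PATHWAY, 22 genes for recognition of endogenous ligands, had an NES of 2.33 with B16F10 against healthy marrow in the authors' deposited table, at a listed q of 0. Its values with YUMM3.3 (0.74) and between the tumours (1.52) were not called. REACTOME_REGULATION_OF_TLR_BY_ENDOGENOUS_LIGAND, 19 genes, had 2.12 with B16F10 in the authors' deposited table (q = 0.000275), 1.34 with YUMM3.3 (q = 0.216) and -0.94 between the tumours (q = 0.735). The other 7 curated Toll-like receptor sets had a negative NES with YUMM3.3.

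In spleen, the receptor cascades were not called in any comparison, and the endogenous ligand sets were. The 7 other curated sets had NES from 0.70 to 1.11 with B16F10 against healthy spleen and from -1.21 to -0.95 with YUMM3.3 in the authors' deposited table. REACTOME_REGULATION_OF_TLR_BY_ENDOGENOUS_LIGAND had 1.68 with B16F10 (q = 0.0289), -1.27 with YUMM3.3 (q = 0.251) and 1.79 between the tumours (q = 0.0219) in the authors' deposited table. PID_TOLL_ENDOGENOUS_PATHWAY had 1.57 with B16F10 (q = 0.0687), 1.01 with YUMM3.3 and 1.73 between the tumours (q = 0.0339) in the authors' deposited table. All 15 Toll-like receptor and LPS sets had a positive NES with B16F10 against healthy spleen, and all 15 in the direct comparison, as had 2900 and 2826 of all 3883 sets. Of the 15, 3 and 4 were called, or 20.0% and 26.7%, against 16.6% and 9.63% of all sets.

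**Figure D2:**
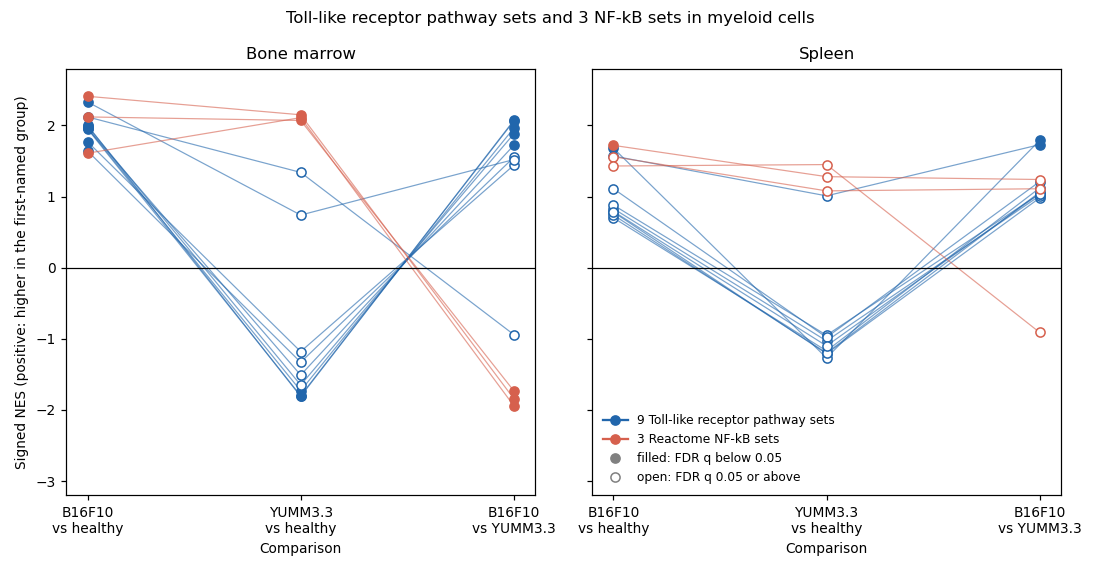
Points are the signed NES of the 9 curated Toll-like receptor sets (blue) and of 3 Reactome NF-κB sets (red) in the 3 comparisons of bone marrow (left) and of spleen (right), with lines joining the points of 1 set, filled where the deposited FDR q is below 0.05. In marrow the blue points lie from 1.64 to 2.33 with B16F10 and from -1.81 to 1.34 with YUMM3.3, while the red points lie from 1.61 to 2.41 with both tumours and from -1.94 to -1.73 in the direct comparison.

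The signatures of cells or tissue exposed to LPS gave a mixed picture. ALTEMEIER_RESPONSE_TO_LPS_WITH_MECHANICAL_VENTILATION, a response of ventilated lung to LPS, was called higher with B16F10 in every myeloid comparison that included B16F10. In the authors' deposited table its NES was 2.93 in marrow and 2.38 in spleen against healthy animals, and 1.66 (q = 0.0483) in marrow and 2.38 in spleen against YUMM3.3. With YUMM3.3 against healthy animals it had 0.94 in marrow (q = 0.748) and 1.19 in spleen (q = 0.349). Its leading edge held 45% of its genes in the first 6% of the list in marrow and 42% in the first 9% in spleen, per the authors' deposited table, and in marrow this is a higher place in the list than that of the receptor cascades.

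NEMETH_INFLAMMATORY_RESPONSE_LPS_UP, 75 genes that rise in response to LPS, had an NES of 2.26 with B16F10 against healthy marrow in the authors' deposited table. In spleen it had 1.90 with B16F10 (q = 0.00229), 1.09 with YUMM3.3 (q = 0.491) and 1.71 between the tumours (q = 0.0379). In marrow its values with YUMM3.3 (1.05) and between the tumours (1.12) were not called. OKUMURA_INFLAMMATORY_RESPONSE_LPS, another LPS signature of 145 genes, had -1.46 with B16F10 (q = 0.148) and -1.73 with YUMM3.3 (q = 0.0342) against healthy marrow in the authors' deposited table. Between the tumours in marrow it had 1.49 (q = 0.109), and its spleen values of 1.18 with B16F10, 1.01 with YUMM3.3 and 1.07 between the tumours were not called. ZHOU_INFLAMMATORY_RESPONSE_LPS_UP, the largest signature of LPS itself with up to 289 genes, was called in no comparison, with values from -1.10 to 1.25 in the authors' deposited table. SEKI_INFLAMMATORY_RESPONSE_LPS_UP was not called in any comparison either, with values from -1.06 to 1.54.

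The NF-κB pathways also rose in marrow of B16F10-bearing animals, and 3 of them rose with both tumours. Of the 7 curated NF-κB sets, 6 were called higher than in healthy marrow with B16F10 and 3 with YUMM3.3, and none lower. All sets were called higher at 20.1% and 9.68% in these comparisons. In the direct comparison 0 were called higher and 3 lower with B16F10, 0 and 42.9% against 8.09% and 8.40% of all sets. REACTOME_TAK1_ACTIVATES_NFKB_BY_PHOSPHORYLATION_AND_ACTIVATION_OF_IKKS_COMPLEX, the step that activates IKK, had an NES of 1.94 with B16F10 in the authors' deposited table (q = 0.00311) and -0.93 with YUMM3.3 (q = 0.734). REACTOME_TRAF6_MEDIATED_NF_KB_ACTIVATION, for the ubiquitin ligase upstream of TAK1, had 1.65 with B16F10 (q = 0.0325) and -0.94 with YUMM3.3 in the authors' deposited table. REACTOME_RIP_MEDIATED_NFKB_ACTIVATION_VIA_ZBP1, for a sensor of nucleic acids, had 1.66 (q = 0.03) and -1.10. These 3 sets had an NES from 1.28 to 1.53 between the tumours, none called. BIOCARTA_NFKB_PATHWAY was called in no comparison. The TAK1 and ZBP1 sets both reached their maximum at rank 2432 with B16F10 against healthy marrow, so the 6 calls may not be separate observations.

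The 3 sets called with both tumours were larger with YUMM3.3 in the direct comparison, opposite to the receptor cascades. REACTOME_DECTIN_1_MEDIATED_NONCANONICAL_NF_KB_SIGNALING, for the fungal receptor dectin-1, had an NES of 2.41 with B16F10 and 2.15 with YUMM3.3 against healthy marrow in the authors' deposited table. Between the tumours it had -1.84 (q = 0.0107). REACTOME_FCERI_MEDIATED_NF_KB_ACTIVATION, for the IgE receptor, had 2.12 with B16F10, 2.07 with YUMM3.3 and -1.73 between the tumours (q = 0.0247) in the authors' deposited table. REACTOME_TNFR2_NON_CANONICAL_NF_KB_PATHWAY, for the second TNF receptor and its relatives, had 1.61 (q = 0.0401), 2.11 (q = 0.000273) and -1.94 (q = 0.00434). In spleen only the dectin-1 set was called, at 1.72 with B16F10 (q = 0.0207).

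Sets named for the proteasome, the protease that degrades ubiquitinated proteins, had the signs of these 3 in marrow, with 1 exception. KEGG_PROTEASOME had an NES of 2.52 with B16F10 and 2.33 with YUMM3.3 against healthy marrow, and -2.00 between the tumours, in the authors' deposited table. Of 4 proteasome sets, 4 were called higher with B16F10 and 3 with YUMM3.3 in marrow, and 2 lower in the direct comparison. These are 100%, 75.0% and 50.0%, against 20.1%, 9.68% and 8.40% of all sets. The exception, REACTOME_ANTIGEN_PROCESSING:_UBIQUITINATION_PROTEASOME_DEGRADATION with 265 genes, had -1.14 with YUMM3.3 (q = 0.406) and 1.43 between the tumours (q = 0.141) in the authors' deposited table. The dectin-1 and IgE receptor sets reached their maximum at ranks 2923, 1519 and 2202 in the 3 marrow comparisons, and REACTOME_DEGRADATION_OF_GLI1_BY_THE_PROTEASOME had those same 3 ranks in the authors' deposited table. Proteasome sets were also called higher in spleen, 3 of 4 with B16F10 and 3 of 4 with YUMM3.3, where all sets had 16.6% and 15.6%. The part of proteasome genes in the NF-κB values was not tested. Without these 3 NF-κB sets, 1 of 49 sets was called higher with YUMM3.3 in marrow, or 2.04% against 9.68% of all sets. In the direct comparison 0 were then lower with B16F10, against 8.40%.

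No experimental signature with NF-κB in its name was called in marrow. Of 13 experimental NF-κB signatures, 0 passed the threshold in either direction in any of the 3 marrow comparisons. Of all sets, 20.1% were called higher and 5.00% lower with B16F10, and 9.68% and 6.52% with YUMM3.3. Between the tumours these shares were 8.09% and 8.40%. At a nominal p below 0.05, 0 of the 13 passed against healthy marrow with either tumour, and 1 was lower with B16F10 in the direct comparison. Not all of the 13 are sets of NF-κB targets. TIAN_TNF_SIGNALING_NOT_VIA_NFKB and BREDEMEYER_RAG_SIGNALING_VIA_ATM_NOT_VIA_NFKB_UP are by their names independent of NF-κB. The median NES of the 13 was 1.07 with B16F10 and 1.04 with YUMM3.3 against healthy marrow, and -0.91 between the tumours. HINATA_NFKB_TARGETS_FIBROBLAST_UP and HINATA_NFKB_TARGETS_KERATINOCYTE_UP, genes induced by NF-κB in skin cells, had 1.07 and 1.24 with B16F10 in the authors' deposited table, and RASHI_NFKB1_TARGETS had 1.43 (q = 0.0997). In spleen 1 of the 13 was called: DEBOSSCHER_NFKB_TARGETS_REPRESSED_BY_GLUCOCORTICOIDS had -1.78 with YUMM3.3 against healthy spleen in the authors' deposited table (q = 0.0343). As a share this is 7.69% called lower, near the 5.31% of all sets.

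No comparison called more than 1 of the 8 curated TNF sets in either direction. In marrow 1 was called higher with B16F10 and 1 with YUMM3.3, in both cases the noncanonical TNFR2 set described above. Of all sets, 20.1% and 9.68% were called higher in these comparisons. Between the tumours in marrow 1 was higher and 1 lower with B16F10, where all sets had 8.09% and 8.40%. As a share, 1 of 8 is below that of all sets with B16F10 and above it with YUMM3.3 and between the tumours. BIOCARTA_TNFR1_PATHWAY, for the receptor that can lead to NF-κB or to cell death, had an NES of 0.89 with B16F10 and -1.63 with YUMM3.3 (q = 0.0588) against healthy marrow in the authors' deposited table. Between the tumours it had 1.65, which passed the threshold narrowly (q = 0.0491). PID_TNF_PATHWAY had the same order, 0.79 with B16F10, -1.60 with YUMM3.3 (q = 0.0718) and 1.60 between the tumours (q = 0.0641), with no call. REACTOME_TNF_SIGNALING, REACTOME_REGULATION_OF_TNFR1_SIGNALING, REACTOME_TNFR1_INDUCED_NFKAPPAB_SIGNALING_PATHWAY and BIOCARTA_TNFR2_PATHWAY were called in no comparison. REACTOME_TNFS_BIND_THEIR_PHYSIOLOGICAL_RECEPTORS, the ligands and receptors of the TNF family, was the set called higher in YUMM3.3-bearing than in healthy spleen, at 1.61 in the authors' deposited table (q = 0.0369). The same set had -1.52 with B16F10 in marrow (q = 0.112).

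Of 12 signatures of the response to TNF, 5 were called higher in marrow of B16F10-bearing than of healthy animals and 0 lower, 41.7% against 20.1% of all sets. ZHOU_TNF_SIGNALING_30MIN and ZHOU_TNF_SIGNALING_4HR, early and later responses to TNF, had an NES of 1.94 (q = 0.0031) and 1.81 (q = 0.0107) with B16F10 against healthy marrow in the authors' deposited table. The early set was also called with YUMM3.3 in marrow, at 1.63 (q = 0.0469). The later set was called with B16F10 in spleen as well, at 1.79 both against healthy spleen (q = 0.0109) and against YUMM3.3 (q = 0.0213), and had -0.64 with YUMM3.3 against healthy spleen. SANA_TNF_SIGNALING_UP had 1.71 with B16F10 in marrow (q = 0.0217) and 1.78 in spleen (q = 0.0121) against healthy tissue, and 1.81 against YUMM3.3 in spleen (q = 0.0176), in the authors' deposited table. ZHANG_RESPONSE_TO_IKK_INHIBITOR_AND_TNF_UP had 1.77 (q = 0.0144) and PHONG_TNF_TARGETS_UP 1.76 (q = 0.0161) with B16F10 in marrow. At q below 0.01 the early ZHOU set alone of the 12 was called with B16F10 against healthy marrow, where 11.0% of all sets were called higher. None of the 12 was called between the tumours in marrow.

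**Figure D3:**
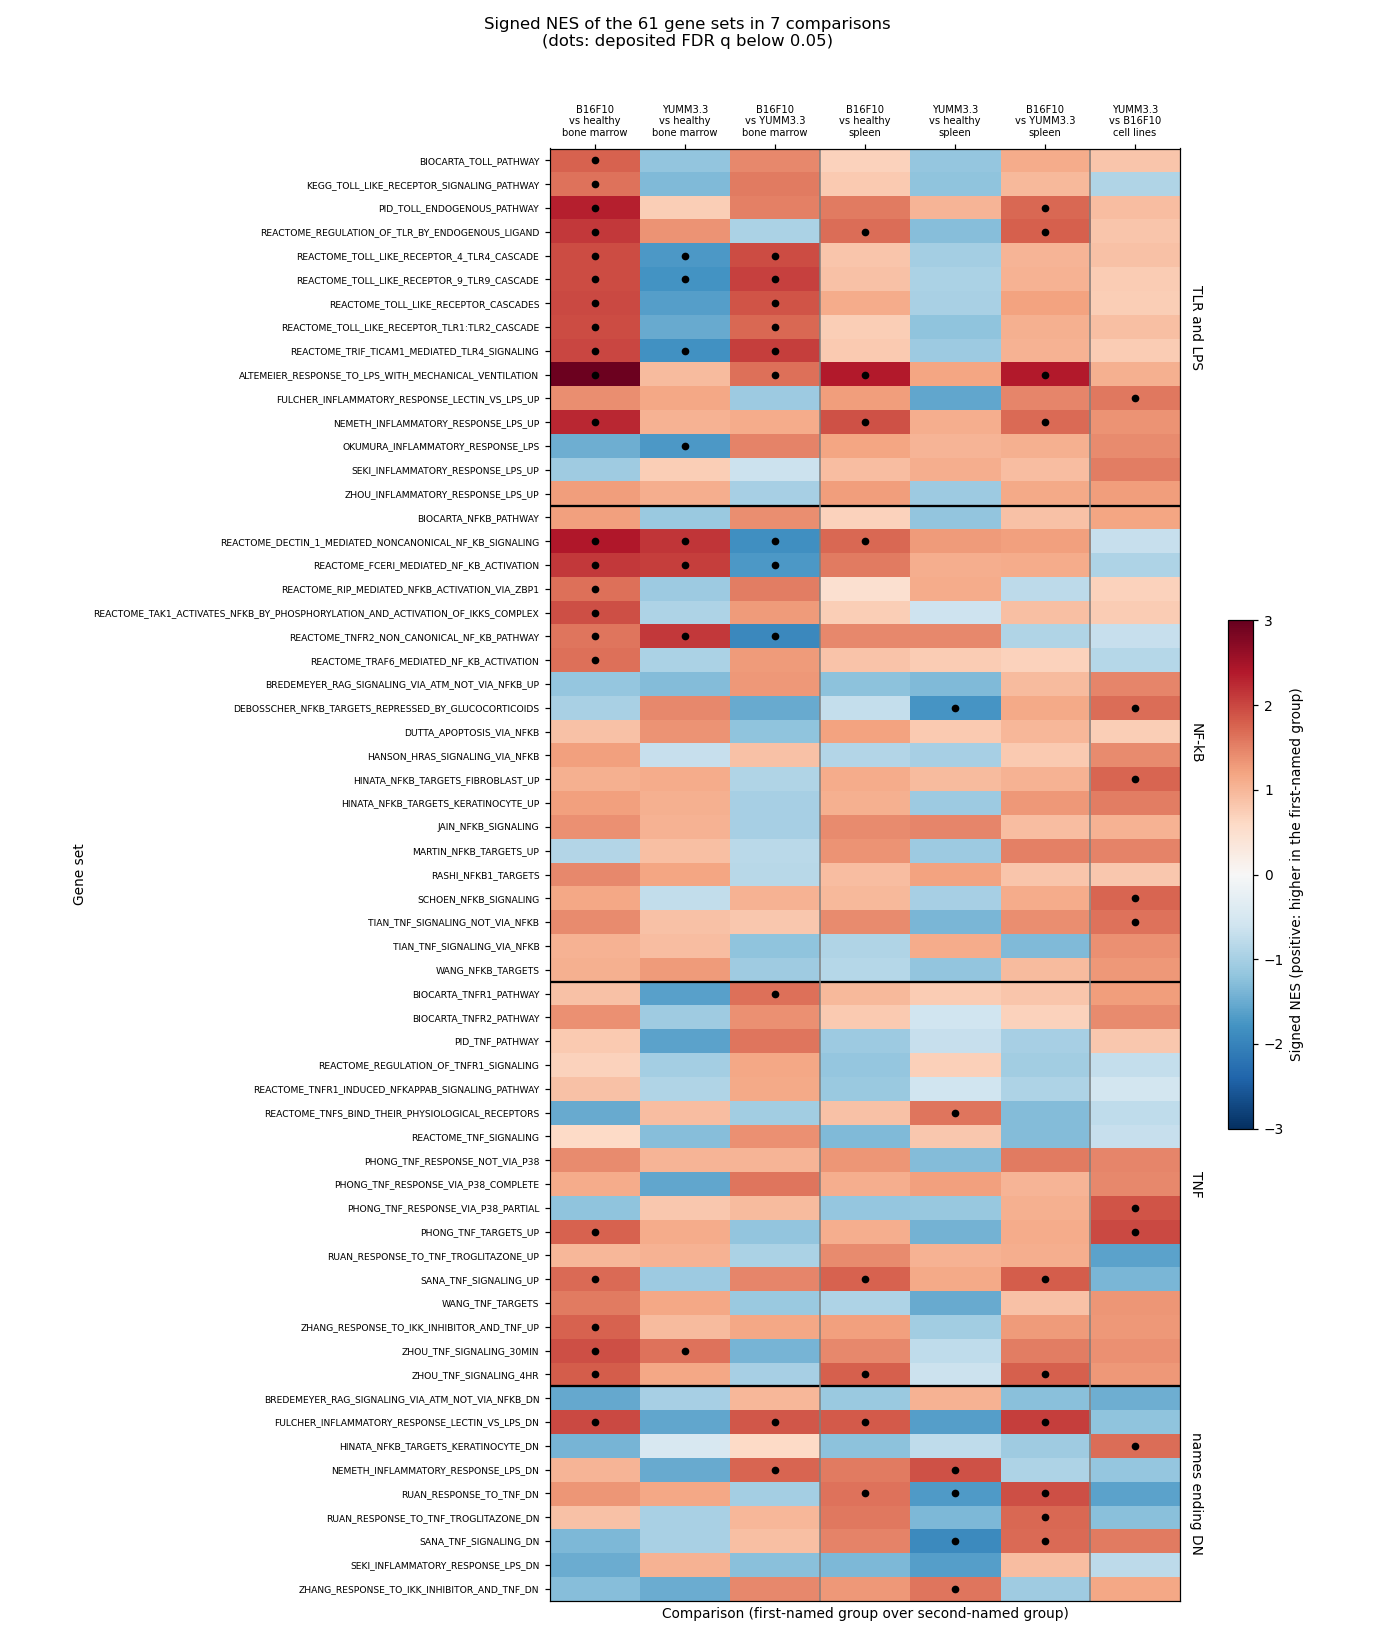
Colour gives the signed NES of all 61 sets (rows) in the 7 comparisons (columns), red for higher and blue for lower in the first-named group, and dots mark a deposited FDR q below 0.05. Sets are grouped as Toll-like receptor and LPS, NF-κB, TNF, and names ending in DN, with a set of both NF-κB and TNF drawn under NF-κB. In marrow with B16F10 the dots cover all 9 curated Toll-like receptor sets and 6 of 7 curated NF-κB sets, and in the cell line column they fall on experimental signatures and 1 DN set.

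Between the cell lines the calls fell on experimental signatures, all called higher in YUMM3.3 than in B16F10 cells, and no pathway set was called. Of 29 experimental signatures 7 were called higher, with a median NES of 1.42, while 0 of 23 curated sets were called, and 0 at a nominal p below 0.05, with a median of 0.75. These are shares of 24.1% and 0, against 11.8% of all sets. Of the 52 sets 13.5% were called higher, and with 1 set per source 12.0%, against 14.4% of all sources. Shares were not counted apart for all curated and all experimental sets. Whether the contrast between the 2 kinds is particular to these sets therefore cannot be said. All 13 experimental NF-κB signatures had a positive NES, and 4 were called: SCHOEN_NFKB_SIGNALING at 1.75 (q = 0.0115), HINATA_NFKB_TARGETS_FIBROBLAST_UP at 1.74 (q = 0.0126), DEBOSSCHER_NFKB_TARGETS_REPRESSED_BY_GLUCOCORTICOIDS at 1.67 (q = 0.0242) and TIAN_TNF_SIGNALING_NOT_VIA_NFKB at 1.63 (q = 0.0352), in the authors' deposited table. The name of the last says that its genes do not need NF-κB, and TIAN_TNF_SIGNALING_VIA_NFKB had 1.38 (q = 0.152). PHONG_TNF_TARGETS_UP had the largest value of the group, 1.98 (q = 0.000328), and PHONG_TNF_RESPONSE_VIA_P38_PARTIAL, for TNF genes that depend in part on the kinase p38, had 1.89 (q = 0.00142) in the authors' deposited table. FULCHER_INFLAMMATORY_RESPONSE_LECTIN_VS_LPS_UP, genes higher after a lectin than after LPS, had 1.59 (q = 0.0474). The median over all 3871 sets in this comparison was 1.08.

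**Figure D4:**
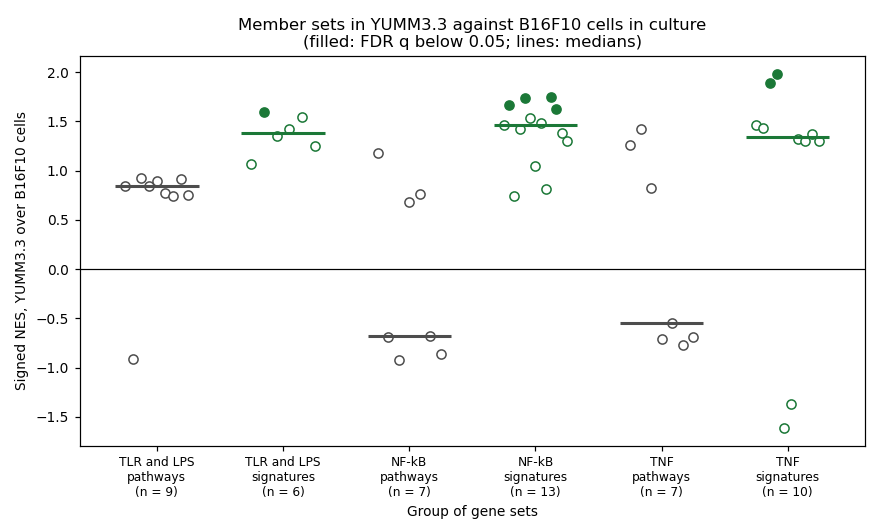
Points are the signed NES of the 52 sets in YUMM3.3 against B16F10 cells in culture, split by group and into curated pathways and experimental signatures, filled where the deposited FDR q is below 0.05, with lines at the medians. A set of both NF-κB and TNF is drawn under NF-κB. The filled points are the 7 called signatures, from 1.59 to 1.98, and no pathway point is filled.

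A pair of sets was called both between the lines in culture and in a tissue, in comparisons that share no library. DEBOSSCHER_NFKB_TARGETS_REPRESSED_BY_GLUCOCORTICOIDS was called higher in YUMM3.3 than in B16F10 cells (1.67) and lower in YUMM3.3-bearing than in healthy spleen (-1.78) in the authors' deposited table. PHONG_TNF_TARGETS_UP was called higher in YUMM3.3 cells (1.98) and higher in B16F10-bearing than in healthy marrow (1.76). The cultures were of melanoma cells and the tissues of myeloid cells, so these values are given side by side only.

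Of the 9 sets ending in DN, 7 were called at least once, against 55.6% of all listed sets. With B16F10 against healthy tissue 1 was called higher in marrow and 2 in spleen, 11.1% and 22.2% against 20.1% and 16.6%. Between the tumours these counts were 2 and 4, 22.2% and 44.4% against 8.09% and 9.63%. With YUMM3.3 against healthy marrow 0 were called. In spleen 2 were higher and 2 lower with YUMM3.3, 22.2% each against 15.6% and 5.31%. Between the lines 1 was higher, 11.1% against 11.8%. FULCHER_INFLAMMATORY_RESPONSE_LECTIN_VS_LPS_DN, by its name genes higher after LPS than after a lectin, had an NES with B16F10 of 1.99 in marrow (q = 0.00188) and 1.85 in spleen (q = 0.00484) against healthy tissue in the authors' deposited table. Against YUMM3.3 it had 1.87 in marrow and 2.07 in spleen, both called, and with YUMM3.3 against healthy tissue -1.55 in marrow (q = 0.0892) and -1.66 in spleen (q = 0.0607). NEMETH_INFLAMMATORY_RESPONSE_LPS_DN had 1.74 between the tumours in marrow (q = 0.0323) and 1.91 with YUMM3.3 against healthy spleen (q = 0.00216). RUAN_RESPONSE_TO_TNF_DN had 1.63 with B16F10 (q = 0.0477), -1.70 with YUMM3.3 (q = 0.0484) and 1.94 between the tumours (q = 0.00425) in spleen. SANA_TNF_SIGNALING_DN had -1.90 with YUMM3.3 against healthy spleen (q = 0.0159) and 1.71 between the tumours (q = 0.037), in the authors' deposited table. RUAN_RESPONSE_TO_TNF_TROGLITAZONE_DN had 1.72 between the tumours in spleen, ZHANG_RESPONSE_TO_IKK_INHIBITOR_AND_TNF_DN had 1.61 with YUMM3.3 against healthy spleen, and HINATA_NFKB_TARGETS_KERATINOCYTE_DN had 1.67 in YUMM3.3 against B16F10 cells, all called in the authors' deposited table.

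Counting both kinds, 9 of the 61 sets were called higher in one comparison and lower in another. They were the TLR4, TLR9 and TRIF sets, the dectin-1, IgE receptor and noncanonical TNFR2 sets, DEBOSSCHER_NFKB_TARGETS_REPRESSED_BY_GLUCOCORTICOIDS, RUAN_RESPONSE_TO_TNF_DN and SANA_TNF_SIGNALING_DN. The same count over all listed sets was not made, so whether 9 of 61 is unusual cannot be said.

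The other sets of these pathways whose names do not hold the 6 words, such as those of MYD88, TAK1 and IKK, were counted as well. Of 23 such sets, 6 were called higher with B16F10 against healthy marrow, or 26.1%, which is near the 20.1% of all sets. With YUMM3.3 1 was called higher, or 4.35% against 9.68% of all sets, between the tumours 2 were, and none was lower in any comparison. REACTOME_MYD88_CASCADE_INITIATED_ON_PLASMA_MEMBRANE, the adaptor route of the surface receptors, had an NES of 1.76 with B16F10 (q = 0.0159), -1.65 with YUMM3.3 (q = 0.0545) and 1.82 between the tumours (q = 0.0189) in the authors' deposited table. Its ranks at the maximum, 2454, 2355 and 2463, were those of the TLR4 cascade.

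Interferon sets and interleukin sets are the nearest groups by function. With B16F10 against healthy animals, 12 of 21 interferon sets were called higher in marrow and 13 in spleen, 57.1% and 61.9% against 20.1% and 16.6% of all sets. With YUMM3.3 these counts were 2 in marrow and 9 in spleen, 9.52% and 42.9% against 9.68% and 15.6% of all sets. In that spleen comparison 1 of the 52 Toll-like receptor, NF-κB and TNF sets was called higher, or 1.92%. Between the cell lines 8 of 20 interferon sets were called lower in YUMM3.3, or 40.0% against 1.47% of all sets. Of the 52, 0 were called lower, which is near that share of all sets. Of 65 interleukin, chemokine and JAK-STAT sets, 17 were called higher and 1 lower with B16F10 against healthy marrow, 26.2% higher against 20.1% of all sets. With YUMM3.3 3 were higher and 2 lower, 4.62% higher against 9.68%. The differences between these groups of sets were not tested.

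Sets named for cell types were counted in the same comparisons. Of 28 sets named for neutrophils, granulocytes, monocytes, macrophages, dendritic or myeloid cells, 10 were called higher and 3 lower with B16F10 against healthy marrow, 35.7% and 10.7% against 20.1% and 5.00% of all sets, and 0 higher and 1 lower with YUMM3.3. The YUMM3.3 shares were 0 and 3.57%, against 9.68% and 6.52% of all sets. Between the tumours 2 were called higher with B16F10 in marrow and 9 in spleen, and 0 lower. The higher shares were 7.14% and 32.1%, against 8.09% and 9.63% of all sets. With B16F10 against healthy spleen 6 were called higher and 0 lower, 21.4% and 0 against 16.6% and 1.60% of all sets. With YUMM3.3 against healthy spleen 1 was higher and 3 lower, 3.57% and 10.7% against 15.6% and 5.31%. Of 26 B cell sets, 5 were called higher and 4 lower with B16F10 against healthy marrow, 19.2% and 15.4%, and 4 higher and 3 lower with YUMM3.3, 15.4% and 11.5% against 9.68% and 6.52% of all sets. Their part in the Toll-like receptor, NF-κB and TNF values was not tested, and the labelled cell type could not be checked against single marker genes.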

How the data were processed

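Myeloid cells of bone marrow and spleen and 2 melanoma lines were sequenced as RNA. Per the submitters' processing notes, the tools were DESeq2 1.22.2, featureCounts 1.6.0, STAR 2.7.1a and FastQC 0.11.8, with the mm10 build and no stated roles. The files were 14 gene set enrichment reports by the authors, 2 for each of 7 comparisons. Each row deposited by the authors holds, per the file headers, a set's size, enrichment score, NES (a normalised score), rank at the maximum and leading edge. The deposited p-values are a nominal p, an FDR q-value and a family-wise p, per the file headers. No source used here gives the permutation scheme. The nominal p above 0 went down to 0.00103, while 2 against 2, 3 against 2 and 3 against 3 libraries allow 6, 10 and 20 relabellings, so these values do not rest on relabelled libraries. Depth is unknown.

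The sign of NES differed between reports, so direction was taken from each report's name: sets higher in its first-named group, or, for the cell lines, up as higher in YUMM3.3. Sets called in opposite directions with the 2 tumours had the matching sign in the direct comparison in 51 of 51 cases in marrow and 35 of 35 in spleen. Sets were selected by name, called at a deposited FDR q below 0.05 and counted beside all listed sets, with no test added (Python 3.11.15, pandas 2.3.3). The name rule was checked on made-up names only, and the threshold on made-up q values placed clearly on either side of it. The reading of reports and the setting of signs were not tested in this way. The members and all lists were chosen with earlier results of these data known. The proteasome, B cell and myeloid lists were added after the values were seen, and IKK was matched at the start of a word, since elsewhere it also took other names: with it anywhere, 6 of 47 other pathway sets were higher and 2 lower with B16F10 in marrow. The sets named are the 3 with the largest NES size per comparison and direction, those called in 3 or more comparisons or in both directions, the curated pathways and the called DN sets; other sets named, such as uncalled signatures, were chosen after their values were seen. The reference annotation was not used here.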

Additional observations from a re-analysis of the deposited data

Results flagged for a closer look

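Sets with called and opposite differences from healthy animals under the 2 tumours were looked for. Of all 3883 sets, 51 had such differences in marrow and 35 in spleen. The value given is the authors' direct comparison, which reuses the tumour libraries, so its sign follows from the choice of sets and the difference was not tested separately. In marrow this held for REACTOME_TOLL_LIKE_RECEPTOR_4_TLR4_CASCADE, with an NES of 1.96 for B16F10 against YUMM3.3 in the authors' deposited table, for REACTOME_TOLL_LIKE_RECEPTOR_9_TLR9_CASCADE, with 2.06, and for REACTOME_TRIF_TICAM1_MEDIATED_TLR4_SIGNALING, with 2.07. These 3 sets overlap and had the same rank at the maximum in both comparisons with healthy marrow. In spleen it held for RUAN_RESPONSE_TO_TNF_DN, with 1.94 in the authors' deposited table. Its calls against healthy spleen had q = 0.0477 with B16F10 and q = 0.0484 with YUMM3.3, both close to the threshold.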

How the results depend on the processing

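Percentages below are of the 52 sets called higher or lower, with the first-named group as above. A percentage that follows the word against is that of all listed sets in the same setting. At FDR q below 0.25, B16F10 against healthy had 63.5% higher and 3.85% lower in marrow, against 37.1% and 17.4%. In spleen it had 28.8% higher, against 34.7%. YUMM3.3 against healthy had 13.5% higher and 23.1% lower in marrow, against 19.9% and 20.1%. In spleen it had 7.69% higher and 13.5% lower, against 23.3% and 25%. B16F10 against YUMM3.3 had 36.5% and 9.62% in marrow, against 21.3% and 17.9%, and 21.2% higher in spleen, against 28.4%. The lines had 46.2% and 1.92%, against 35.4% and 3.72%. At q below 0.01, B16F10 against healthy had 25% higher in marrow and 3.85% in spleen, against 11.0% and 10.4%. YUMM3.3 against healthy had 0 lower in marrow, against 2.21%, and 0 either way in spleen, against 11.6% higher and 1.26% lower. B16F10 against YUMM3.3 had 5.77% higher and 1.92% lower in marrow, against 3.12% and 4.66%, and 1.92% higher in spleen, against 3.71%. The lines had 3.85% higher, against 5.09%. With sets of 25 to 200 genes, YUMM3.3 against healthy had 12.1% each way in marrow, against 11.5% higher and 6.71% lower. In spleen it had 3.03% higher and 0 lower, against 16.9% and 5.42%. B16F10 against YUMM3.3 then had 21.2% and 9.09% in marrow, against 8.57% and 9.51%. With 1 set per source, B16F10 against healthy had 24.0% higher in marrow, against 27.6%. YUMM3.3 against healthy then had 0 higher and 4.00% lower in each tissue, against 9.37% and 5.80% in marrow and 18.6% and 7.12% in spleen. B16F10 against YUMM3.3 had 0 lower in marrow, against 6.99%. With DN sets kept, YUMM3.3 against healthy spleen had 4.92% each way, against 15.6% higher and 5.31% lower. The 3 NF-κB sets called with both tumours were also left out, an alternative chosen after seeing the data. In marrow YUMM3.3 against healthy then had 2.04% higher, against 9.68%, and B16F10 against YUMM3.3 had 0 lower, against 8.40%.

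For the 15 Toll-like receptor and LPS sets in marrow, alternatives were also chosen after seeing the data. At q below 0.25, B16F10 against healthy had 6.67% lower, against 17.4% of all sets. YUMM3.3 against healthy had 6.67% higher and 46.7% lower, against 19.9% and 20.1%, and B16F10 against YUMM3.3 had 66.7% higher, against 21.3%. At q below 0.01, YUMM3.3 against healthy had 0 lower, against 2.21% of all sets, and B16F10 against YUMM3.3 had 20.0% higher, against 3.12%. With 1 set per source, 60.0% were higher in B16F10 against healthy, against 27.6% of all sources. YUMM3.3 against healthy then had 10.0% lower, against 5.80% of all sources, and a median NES of 0.74, turned from -1.18. B16F10 against YUMM3.3 had 20.0% higher, against 9.76%. That setting keeps 1 of the Reactome sets. All other percentages of the member sets as a whole, and of these 15 sets in marrow, stayed within 1.5 times the main one. No other median of these sets changed sign. The shares of the other groups, such as the NF-κB sets, the TNF sets and the sets ending in DN, were not put through all of these alternatives. The same holds for the Toll-like receptor and LPS sets in spleen and in culture. No paired analysis was possible because no values per library were analysed here, and for the same reason no library could be left out. The depth limits could not be assessed.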
